A study of Mus musculus with 12 samples.

Results

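Splicing factors and hnRNPs were compared between AND-TCR–transgenic and C57BL/6 thymocytes. The genes were taken by name, as all probe sets on the Affymetrix U74Av2, U74Bv2 and U74Cv2 arrays whose only annotated gene symbol starts with Srsf, Hnrnp, Sf3a, Sf3b, Snrp, U2af or Prpf, with the AFFX control probe sets left out. This gave 134 of 36701 probe sets, and 58 of the 15964 genes that the arrays name singly. AND mice carry a transgenic T cell receptor (TCR), and the paper names their thymocytes on the H-2b background positive-selector thymocytes. Thymocytes of wild-type C57BL/6 mice were the control. Both groups were adult and both gave total thymocytes, a mixture of maturation stages, so that fewer cells of a type and less RNA per cell cannot be told apart. The promoter of the transgene, the sex of the mice and the number of mice pooled were not given in the sources used here. Each group was hybridized 2 times to each array type, and the paper speaks of 2 independent experiments. Neither the labels nor the paper says whether the first and second hybridization came from separate mice. The p-values therefore reflect the spread between hybridizations alone, some of it possibly technical.

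Introns are removed from pre-mRNA by the spliceosome, an assembly of small nuclear ribonucleoproteins (snRNPs) that recognizes the ends of the intron and its branch point. U2AF binds the 3′ end of the intron, the SF3a and SF3b complexes hold the U2 snRNP on the branch point, the Sm proteins form the ring at the core of the snRNPs, and the PRPF proteins assemble and rearrange the catalytic spliceosome. SR proteins (Srsf) bind exons and generally favor their use, whereas hnRNPs coat pre-mRNA and often repress exons or splice sites. In T cells, the best known switch of this kind is that of Ptprc (CD45), whose variable exons are skipped with the help of Hnrnpll and Hnrnpl.

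The promoters of 7 genes are shown because these genes had a probe set with an unadjusted p under 0.05 in the comparison described next. Each is the RefSeq window on GRCm38.p6 from 250 bases before to 50 bases after the annotated start, printed 5′ to 3′ along the gene. Capitals mark the motifs searched on both strands, which were CCGGAAG (a core that ETS factors bind), GGGCGG (the GC box), CCAAT (the CCAAT box), TATAAA (the TATA box) and CACGTG (the E box). For U2af1 and Hnrnpr, 1 of 2 listed windows is given.
Hnrnph3 (chr10:63023800-63024099, minus strand): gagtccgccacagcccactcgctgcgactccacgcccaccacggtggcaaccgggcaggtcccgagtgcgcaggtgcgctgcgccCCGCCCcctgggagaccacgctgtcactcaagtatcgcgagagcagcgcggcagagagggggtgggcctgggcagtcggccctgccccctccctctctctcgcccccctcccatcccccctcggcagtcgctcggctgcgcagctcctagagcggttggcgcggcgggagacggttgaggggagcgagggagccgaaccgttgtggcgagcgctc
U2af1 (chr17:31658715-31659014, minus strand): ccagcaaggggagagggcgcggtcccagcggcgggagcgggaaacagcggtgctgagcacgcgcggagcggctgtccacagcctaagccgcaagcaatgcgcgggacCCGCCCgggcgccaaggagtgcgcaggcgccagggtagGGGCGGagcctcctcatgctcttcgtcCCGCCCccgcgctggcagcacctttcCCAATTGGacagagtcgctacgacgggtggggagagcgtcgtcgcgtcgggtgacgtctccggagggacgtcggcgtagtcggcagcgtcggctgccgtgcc
Sf3a2 (chr10:80798485-80798784, plus strand): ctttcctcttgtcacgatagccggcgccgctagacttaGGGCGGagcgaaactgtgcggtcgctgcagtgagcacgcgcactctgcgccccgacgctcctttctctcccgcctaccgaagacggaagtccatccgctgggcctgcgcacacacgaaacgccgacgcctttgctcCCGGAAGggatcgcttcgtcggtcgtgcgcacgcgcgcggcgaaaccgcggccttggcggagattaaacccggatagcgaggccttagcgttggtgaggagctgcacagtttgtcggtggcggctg
Snrpf (chr10:93589609-93589908, minus strand): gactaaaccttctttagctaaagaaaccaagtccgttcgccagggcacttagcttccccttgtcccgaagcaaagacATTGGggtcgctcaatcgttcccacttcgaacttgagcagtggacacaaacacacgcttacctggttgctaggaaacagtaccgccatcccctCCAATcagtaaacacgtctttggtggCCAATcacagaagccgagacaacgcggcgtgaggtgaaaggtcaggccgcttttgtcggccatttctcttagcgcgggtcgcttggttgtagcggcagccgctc
Prpf39 (chr12:65036084-65036383, plus strand): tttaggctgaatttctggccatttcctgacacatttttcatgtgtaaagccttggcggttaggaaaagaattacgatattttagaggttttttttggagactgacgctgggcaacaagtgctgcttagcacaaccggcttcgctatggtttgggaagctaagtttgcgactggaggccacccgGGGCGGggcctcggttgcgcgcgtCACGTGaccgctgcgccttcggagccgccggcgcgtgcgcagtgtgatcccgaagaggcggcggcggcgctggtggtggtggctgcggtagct
Hnrnpr (chr4:136310692-136310991, plus strand): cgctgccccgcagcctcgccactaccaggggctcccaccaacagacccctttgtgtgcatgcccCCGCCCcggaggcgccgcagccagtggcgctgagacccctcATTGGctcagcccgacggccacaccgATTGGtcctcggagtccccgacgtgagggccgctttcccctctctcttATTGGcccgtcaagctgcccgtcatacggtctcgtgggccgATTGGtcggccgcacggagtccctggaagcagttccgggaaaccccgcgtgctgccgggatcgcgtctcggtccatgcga
Srsf10 (chr4:135855821-135856120, plus strand): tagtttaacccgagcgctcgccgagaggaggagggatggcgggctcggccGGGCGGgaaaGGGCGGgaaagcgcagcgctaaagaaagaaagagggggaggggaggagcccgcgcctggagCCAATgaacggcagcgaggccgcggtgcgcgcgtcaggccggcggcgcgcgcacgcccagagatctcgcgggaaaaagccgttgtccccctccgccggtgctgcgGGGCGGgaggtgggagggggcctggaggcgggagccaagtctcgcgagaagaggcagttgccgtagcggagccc

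These windows were rich in CpG and none of the 7 held TATAAA, while that of Prpf39 held CACGTG. RefSeq gave 64 windows for 51 of the 58 genes, and none for Hnrnpll, Sf3b5, Hnrnpul2, Prpf18, Snrpb, U2af2 and Snrp1c-ps2. The median window of the splicing genes held 25 CpG, against 21 in the 8171 windows of genes tested on the arrays and 7 in all 32851 windows. TATAAA was in 7.81% of the windows of splicing genes, 7.07% of those of tested genes and 13.6% of all windows. GGGCGG was in 65.6%, 62.6% and 35.7%, and CCAAT in 50%, 37.1% and 37.4%. CACGTG was in 9.38%, 9.94% and 7.15%. CCGGAAG differed more between these sets, with 32.8% of the windows of splicing genes, 18.6% of those of tested genes and 8.86% of all windows. It was unevenly spread over the splicing genes. Among the SF3 subunits 6 of 7 genes had it (Sf3a1, Sf3a2, Sf3a3, Sf3b2, Sf3b3 and Sf3b6, but not Sf3b1). So did 4 of 7 Snrp genes, while among the hnRNPs Hnrnpd alone of 16 genes had it. These counts describe the letters in the windows, and the split by family was made after the totals were seen. In the U2af1 window CCAAT lies on both strands with overlapping letters.

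Testing required that both arrays of 1 group, or of both groups, exceed a detection limit taken from the negative values of its array type, which was 420.8 on U74Av2, 869.4 on U74Bv2 and 1579 on U74Cv2. Of the 134 probe sets 85 were tested, 76 of them above the limit on all 4 arrays, and these 85 came from 55 genes. The other 9 tested probe sets passed through 1 group with a single array of the other group below the limit. Of the 49 untested probe sets 32 had no array above the limit. Hnrnpa0, Hnrnpc and Hnrnph2 had no tested probe set, with highest intensities of 1703.4, 635.6 and 444.1. A further 11 probe sets carried several symbols of which at least 1 met the naming rule, such as those for Snrpa, Snrpd1 and Snrpn, and were not counted.

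No splicing factor or hnRNP passed the test between AND-TCR–transgenic and C57BL/6 thymocytes. Here and in what follows, ± gives the standard error of a log2 fold change (AND-TCR–transgenic over C57BL/6, n = 2 hybridizations per group), and p-values are those of limma, adjusted over all tested probe sets unless stated. At an adjusted p under 0.05 from limma, 0 of the 85 probe sets were higher in AND-TCR–transgenic thymocytes and 0 were lower, where 0.483% and 0.568% of all 12844 tested probe sets were called, or 1.05% in either direction. The lowest adjusted p was 0.13, for Hnrnph3. At an unadjusted p under 0.05, limma gave 2 higher and 5 lower probe sets, against 7.47% and 6.51% of all tested probe sets, or 14% in either direction. These last counts depended on the prior variance, with 4 higher and 1 lower without its trend and 3 and 3 with 1 prior over the array types, and quantile normalization gave 1 and 3. Intensities of the groups did not overlap for 13 probe sets that were higher and 23 that were lower in AND-TCR–transgenic thymocytes, where the shares over all tested probe sets were 23% and 21.4%. Only limma was run, and 0 were called under every alternative tried.

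**Figure D1:**
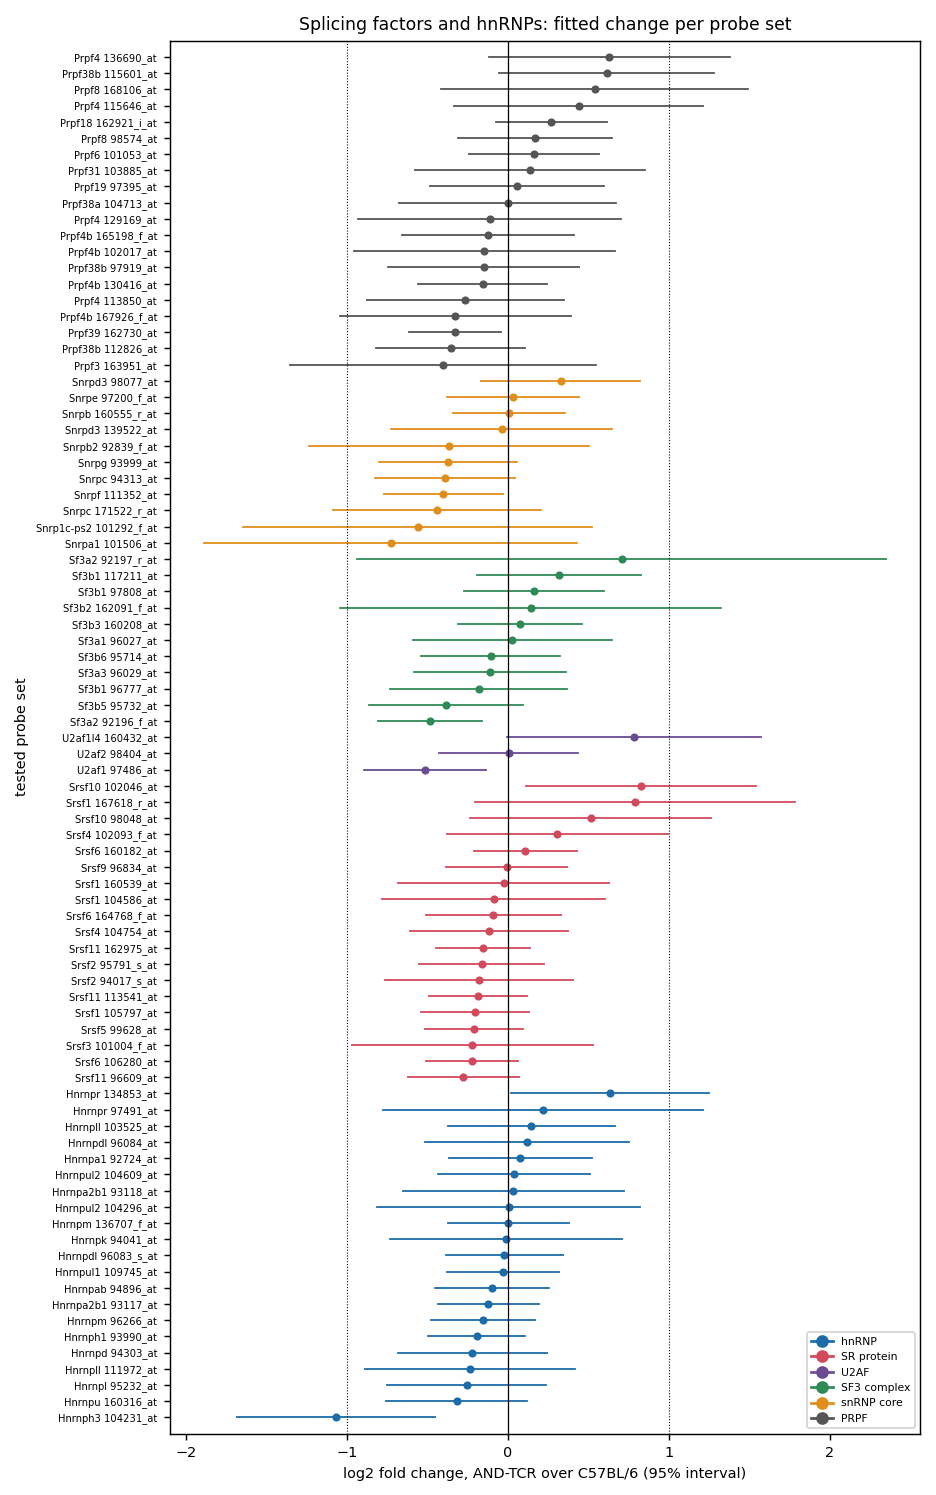
Fitted log2 fold change (points, AND-TCR–transgenic over C57BL/6, 2 arrays per group) with its 95% interval for each of the 85 tested probe sets, ordered within 6 families. Dotted lines mark 2-fold either way. Hnrnph3 at -1.07 is the only point beyond a dotted line, and most intervals lie between the lines.

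Most of these probe sets had intervals within 2-fold either way, as far as the spread between hybridizations goes. For 66 of the 85 probe sets (77.6%) the 95% interval of the log2 fold change lay within 2-fold either way, against 54.7% of all tested probe sets. Among those above the limit on all 4 arrays it was 64 of 76 (84.2%), against 58.8%. A fitted difference of 2-fold or more was found for 1 probe set, where 4.34% of all tested probe sets had one. The median size of the difference between the groups was 0.18 on the log2 scale, against 0.26 over all tested probe sets. Between the C57BL/6 hybridizations the median difference of the splicing probe sets was 0.16, and between the AND hybridizations it was 0.28, against 0.25 and 0.29 over all tested probe sets. The splicing probe sets were also brighter, with a median mean log2 intensity of 11.69 against 11.05, and had a smaller median standard error, 0.21 against 0.28.

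**Figure D2:**
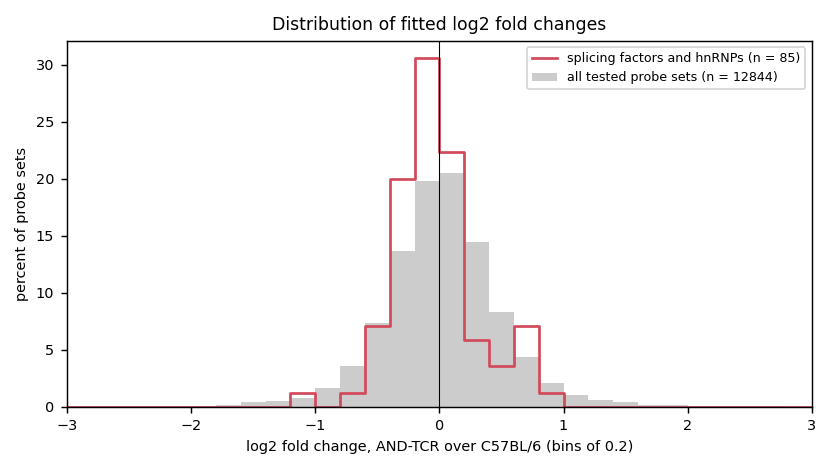
Percent of probe sets per bin of 0.2 in log2 fold change (AND-TCR–transgenic over C57BL/6), for the 85 tested probe sets of splicing factors and hnRNPs (line) and all 12844 tested probe sets (bars). The line is narrower than the bars and its bulk sits slightly below 0.

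More of the small differences were below 0 than above. The log2 fold change was negative for 51 of 85 probe sets (60%), where 48% of all tested probe sets were negative. By gene, with each gene at its tested probe set with the highest mean, 35 of 55 (63.6%) were negative, against 47.2% of 7843 genes. The median gene was at -0.11, against 0.03 over all genes. It was -0.08 in the first and -0.11 in the second experiment, each of them 1 AND hybridization over the C57BL/6 hybridization of that number, run on the same day, with medians over all genes of 0.0032 and 0.05. In both experiments 30 probe sets were lower and 19 were higher, against 27.6% and 30.2% of all tested probe sets. The excess of negative probe sets rested on the second AND hybridization, since without it 42 of 85 (49.4%) were negative, against 49.7% of all tested probe sets. The median gene was at -0.057 without that hybridization, against 0.0095 over all genes. With all hybridizations, but the tested probe sets of each gene averaged, the median gene was at -0.029. By array type, 33 of 58 were negative on U74Av2, 13 of 17 on U74Bv2 and 5 of 10 on U74Cv2.

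Most genes of a proliferation list and of a thymocyte list also had lower values in AND-TCR–transgenic thymocytes. Of 18 tested proliferation genes 17 had a negative log2 fold change, with a median of -0.41 and 0 called by limma at the adjusted threshold (8 lower at an unadjusted p under 0.05), and their summed intensity was 83705 and 86383 in C57BL/6 and 63467 and 71771 in AND-TCR–transgenic thymocytes. Of 10 tested thymocyte genes 8 had a negative log2 fold change, and 4 were lower at the adjusted threshold (Rag1, Rag2, Cd8a and Cd8b1). Over all tested genes 47.2% were negative. Of all tested probe sets 0.568% were lower at the adjusted and 6.51% at the unadjusted threshold. Cd3d (0.40 ± 0.26) and Cd3e (0.06 ± 0.16) were above 0, and Ptcra was at -0.17 ± 0.28. All 10 genes were above the limit on both C57BL/6 arrays. The summed thymocyte intensity was 204276 and 204918 in C57BL/6 and 112024 and 127783 in AND-TCR–transgenic thymocytes. The summed intensity of the mature T cell list was 3622 and 2738 in C57BL/6 and 5676 and 4698 in AND, with 0 of its 3 tested genes called. Ccr7, a chemokine receptor of mature thymocytes, read 928.3 and 588.4 in C57BL/6 and 3386.9 and 2624.8 in AND (log2 fold change 2.01 ± 0.34, limma adjusted p = 0.051). S1pr1, the receptor for thymic egress, read 517.5 and 160.7 in C57BL/6, the second below the limit, and 864.1 and 647 in AND. Il7r was at -0.44 ± 0.27, and Klf2 was above the limit on 1 AND array alone. The parts of these 3 lists in the splicing values were not tested. Of the markers of other cells, the globin Hba-a1 read 9709.7 and 11407.1 in C57BL/6 and 6639.3 and 4378 in AND. The summed B cell markers read 3317 and 3538 in C57BL/6 and 2807 and 2711 in AND, but these markers differed in direction. Cd79a had a log2 fold change of -1.18 ± 0.27, with both AND arrays below the limit. Cd79b was at -0.86 ± 0.40, Ms4a1 at -0.14 ± 0.26 and Pax5 at 0.56 ± 0.35. The summed myeloid markers read 1688 and 2697 in C57BL/6 and 2789 and 2919 in AND. Itgam, Alas2, Foxn1 and Krt5 were above the limit on no array. The thymic epithelium marker Epcam was above it on all 4 arrays, with 2611 and 2497.8 in C57BL/6 and 1741.4 and 3862.4 in AND. Krt8 and Psmb11, of the same list as Foxn1 and Krt5, were above it on 1 AND array each. Xist read 2878.4 and 3001.2 in C57BL/6 and -52.8 and -98.6 in AND, and the Y-linked Kdm5d read -18 and -127.3 in C57BL/6 and 2897 and 2867.8 in AND, so that genotype and the sex that these genes mark cannot be told apart. The C57BL/6 arrays were all run on fluidics module 2 and the AND arrays on module 4, which also cannot be told apart from genotype, and the first C57BL/6 array of U74Av2 was marked as a rescan.

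**Figure D3:**
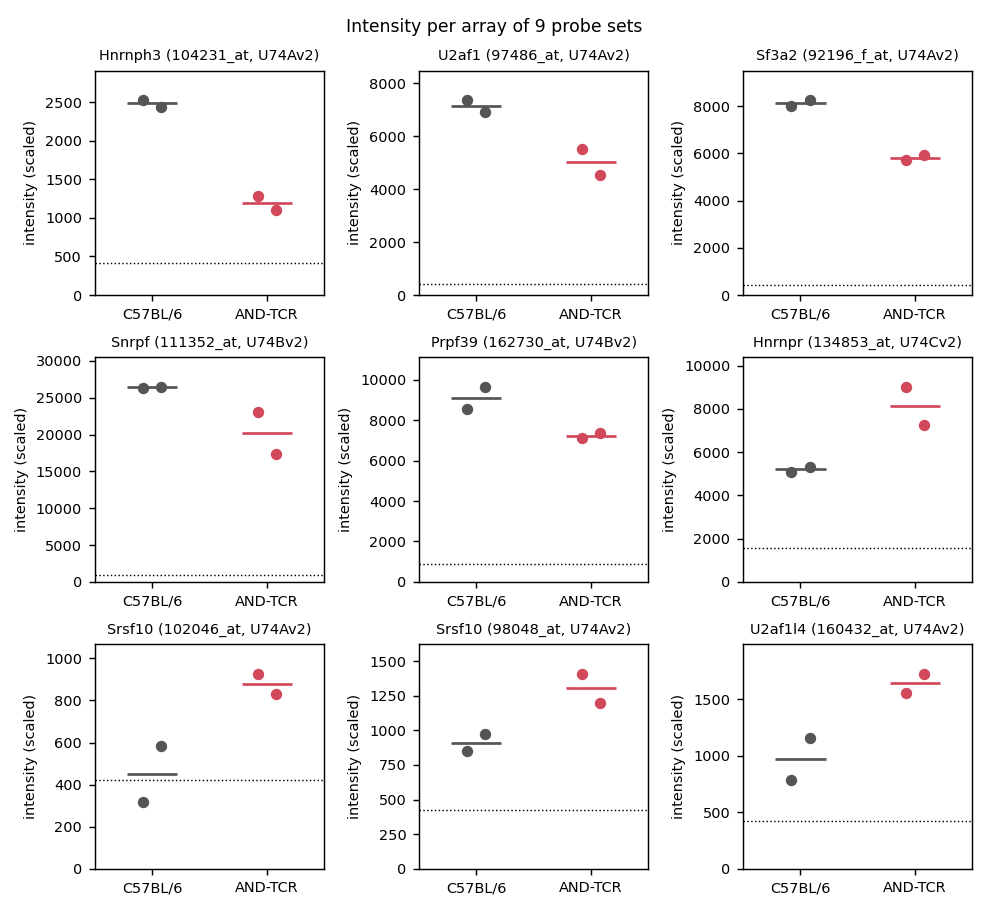
Intensity per array (points, scaled linear intensity) of 9 probe sets in the 2 C57BL/6 and 2 AND-TCR–transgenic hybridizations, with the group mean (bar) and the detection limit of the array type (dotted line). The panels are probe sets chosen for a low unadjusted p from limma, with 98048_at of Srsf10 added. The groups do not overlap in any of the panels, as this choice favors, and 5 are lower and 4 are higher in AND-TCR–transgenic thymocytes. Over all tested probe sets, 21.4% were lower and 23% were higher without overlap. The probe set 102046_at of Srsf10 was tested only through the AND arrays, where it is high.

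Among the hnRNPs, Hnrnph3 had the largest difference. Hnrnph3, of the hnRNP H/F group that binds G-rich runs, read 2527.6 and 2440.1 in C57BL/6 and 1283.3 and 1095.5 in AND-TCR–transgenic thymocytes on its only probe set. Both AND values were below both C57BL/6 values, and the log2 fold change was -1.07 ± 0.26 (2.09-fold lower, limma adjusted p = 0.13). Hnrnph1, of the same group, read 16834.6 and 18159.4 in C57BL/6 and 15259.4 and 15289.9 in AND, a log2 fold change of -0.19 ± 0.13. Hnrnpr, an RNA-binding hnRNP, went the other way on U74Cv2, with 5097.3 and 5334.5 in C57BL/6 and 9024.6 and 7247 in AND. Its log2 fold change there was 0.63 ± 0.26 (limma adjusted p = 0.345). The U74Av2 probe set of Hnrnpr read 1463.7 and 1217.5 in C57BL/6 and 2327.9 and 1037.2 in AND, so that the groups overlapped there and the log2 fold change was 0.22 ± 0.42.

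The regulators of CD45 splicing did not pass the test. Hnrnpll read 2877.9 and 4075.7 in C57BL/6 and 4079.8 and 3515.8 in AND on U74Av2, and the groups overlapped. Its log2 fold change was 0.15 ± 0.22 there (95% interval -0.37 to 0.67, and -0.11 without the first C57BL/6 hybridization) and -0.23 ± 0.26 on U74Bv2. Hnrnpl, its paralog, read 7628.5 and 5144.6 in C57BL/6 and 5477.5 and 5019.1 in AND, a log2 fold change of -0.26 ± 0.21. Ptprc, their target, had log2 fold changes of -0.01 and 0.09 (each ± 0.16) on its 2 tested probe sets, whose places relative to the variable exons are not known here. The exon repressors Hnrnpa1 (0.08 ± 0.19) and Hnrnpa2b1 (-0.12 ± 0.13) were close to 0 in log2 fold change. So were Hnrnpk (-0.01 ± 0.31), which binds C-rich RNA, and Hnrnpm on U74Cv2 (0.0032 ± 0.16). There Hnrnpm read 38128.5 and 36839.1 in C57BL/6 and 40567 and 34778.7 in AND. The U74Av2 probe set of Hnrnpm was at -0.15 ± 0.14, lower without overlap, as were 21.4% of all tested probe sets. Hnrnpd, which binds AU-rich elements in mRNA, had a log2 fold change of -0.22 ± 0.20. Over the 21 tested hnRNP probe sets 12 were negative, and the median of the 15 tested genes was -0.03. It was -0.11 without the first C57BL/6 and without the first AND hybridization (15 and 17 negative), and -0.10 with quantile normalization.

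The SR proteins leaned below 0, while Srsf10 was above it. Of 19 tested probe sets 14 were negative, and the median of the 9 genes was -0.18. Without the second AND hybridization 9 of 19 were negative and the median was -0.08. Srsf10, an SR protein that represses splicing when dephosphorylated, read 850.3 and 972.3 in C57BL/6 and 1409.1 and 1195.1 in AND on 98048_at. On 102046_at it read 315.7 and 581.6 in C57BL/6 and 927.4 and 830.7 in AND, with the first C57BL/6 value below the limit, so that this probe set was tested only through the AND arrays, where it is high. The groups did not overlap on 98048_at, and the log2 fold changes were 0.51 ± 0.32 and, with the low value set to the limit, 0.83 ± 0.30 (limma adjusted p = 0.543 and 0.29). Srsf11, a less studied member of the family, was below 0 on each of 3 probe sets, at -0.15, -0.18 and -0.28, and the groups did not overlap on any of them. Over all tested probe sets 21.4% were lower without overlap, and these 3 read 1 gene in the same samples. Their lowest limma adjusted p was 0.461. Srsf5 read 12504.8 and 13396.5 in C57BL/6 and 10938.4 and 11405.8 in AND, a log2 fold change of -0.21 ± 0.13. Srsf2, which shuttles little and acts in the nucleus, read 30656.3 and 30285.3 in C57BL/6 and 20399.5 and 35489.3 in AND. The AND hybridizations of Srsf2 lay on either side of the C57BL/6 values, so that its log2 fold change of -0.18 had opposite signs in the experiments. Srsf3 had a log2 fold change of -0.22 ± 0.32 and Srsf9 of -0.01 ± 0.16.

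The U2AF genes had values in different directions. U2af1, the small subunit, which reads the AG at the 3′ splice site, had intensities of 7373.2 and 6929.5 in C57BL/6 and 5519.1 and 4535.6 in AND. Its groups did not overlap, and its log2 fold change was -0.51 ± 0.16 (limma adjusted p = 0.22). U2af2, the large subunit, which binds the polypyrimidine tract, read 21766.3 and 21689.9 in C57BL/6 and 18346.3 and 25883.2 in AND, a log2 fold change of 0.0042 ± 0.18. U2af1l4, a paralog of the small subunit, read 784.7 and 1156.4 in C57BL/6 and 1553.8 and 1728.5 in AND. It was higher in both experiments, with a log2 fold change of 0.78 ± 0.33 (limma adjusted p = 0.361). The difference between these genes was not tested.

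In the SF3 complex, 5 of 11 tested probe sets were negative and the median of the 8 genes was -0.04. Leaving out 1 hybridization moved it to -0.18 (first AND), -0.12 (second C57BL/6), 0.03 (second AND) or -0.02 (first C57BL/6). Sf3b1, which clamps the branch point and its U2 duplex, had log2 fold changes of 0.16 ± 0.18, -0.18 ± 0.23 and 0.32 ± 0.20 on 3 probe sets. Sf3a2 read 8018.3 and 8262.1 in C57BL/6 and 5714.8 and 5927.5 in AND on 92196_f_at, and the spread within each group was small beside the gap between them. Its log2 fold change there was -0.48 ± 0.14 (limma adjusted p = 0.182). Sf3b5, a small subunit of SF3b, read 3252.3 and 3421.3 in C57BL/6 and 2847 and 2298 in AND, a log2 fold change of -0.38 ± 0.20. Sf3a1 (0.03), Sf3a3 (-0.11), Sf3b3 (0.08) and Sf3b6 (-0.11) had log2 fold changes smaller than their standard errors, as did Sf3b2 (0.14 ± 0.50, and -0.57 without the second C57BL/6 hybridization).

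The Snrp family, labelled snRNP core in the figures, held Sm ring proteins together with Snrpc, Snrpa1, Snrpb2 and Snrp1c-ps2, which are outside the ring. It had the lowest median of the 6 families, at -0.37 over 9 genes, with 8 of 11 probe sets negative. This median was -0.14 without the second AND hybridization, -0.16 without the first C57BL/6 hybridization and -0.60 without the first AND hybridization. It was no longer the lowest without the first C57BL/6 hybridization, where the PRPF median was -0.24 and that of the SR proteins -0.17, nor without the second AND hybridization, where the U2AF median was -0.24. Snrpf, an Sm ring protein, read 26378.3 and 26496.3 in C57BL/6 and 23093.9 and 17362.4 in AND, a log2 fold change of -0.40 ± 0.15 (limma adjusted p = 0.322). Snrpg, which lies in the same ring, read 8876 and 9702.4 in C57BL/6 and 8414.6 and 6121.6 in AND, a log2 fold change of -0.37 ± 0.18. In both genes the second AND hybridization was the lower one. The ring proteins Snrpb (0.01 ± 0.15) and Snrpe (0.03 ± 0.17) were near 0. Snrpd3, also of the ring, was at 0.33 ± 0.21 on U74Av2 and -0.04 ± 0.29 on U74Cv2. Snrpc, a protein of the U1 snRNP, was negative on both tested probe sets, at -0.39 ± 0.18 and -0.44 ± 0.27. Snrp1c-ps2, annotated as a pseudogene, was at -0.56 ± 0.46 on a probe set that may also read its parent gene. Snrpa1 and Snrpb2, proteins of the U2 snRNP, were at -0.73 ± 0.49 and -0.37 ± 0.37, each with the second AND array below the limit.

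Among the PRPF proteins, 11 of 20 tested probe sets were negative and the median of the 11 genes was -0.0023. It was -0.24 without the first and 0.14 without the second C57BL/6 hybridization, and -0.16 with a limit of 1 noise SD. Prpf39, a protein associated with the U1 snRNP, read 8582 and 9660.7 in C57BL/6 and 7120.5 and 7369.4 in AND, without overlap. Its log2 fold change was -0.33 ± 0.12 (limma adjusted p = 0.295). Prpf8, the scaffold of the catalytic center, was at 0.17 ± 0.20 on U74Av2 (-0.06 without the second AND hybridization) and 0.54 ± 0.40 on U74Cv2. Prpf6, which bridges the tri-snRNP, read 3334.1 and 3475.4 in C57BL/6 and 3648.5 and 3982.5 in AND, a log2 fold change of 0.16 ± 0.17. Prpf19, a ubiquitin ligase of the spliceosome, was at 0.06 ± 0.23, and Prpf31 at 0.14 ± 0.30. Prpf4b, a kinase that phosphorylates spliceosome proteins, was negative on each of 4 probe sets, from -0.13 to -0.33.

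Probe sets of 1 gene often gave different directions, though seldom beyond their errors. Of the 58 genes 20 had at least 2 tested probe sets, and in 12 of them (60%) the extreme log2 fold changes had opposite signs, against 43.5% of 2239 such genes on the arrays. The median difference between the extremes was 0.35 in both sets. In 1 gene, Sf3a2, probe sets of opposite sign differed by at least 1, where 4.69% of all such genes did. The second probe set of Sf3a2, 92197_r_at, read 2006.7 and -11.7 in C57BL/6 and 1160.7 and 1938.4 in AND, so that 1 C57BL/6 array decided its log2 fold change of 0.71 ± 0.70. The difference between the probe sets of Sf3a2 was 1.19 ± 0.71, and without the second C57BL/6 hybridization the log2 fold change of 92197_r_at was -0.42.

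In 3 genes the difference exceeded 2 standard errors, and the share of all such genes on the arrays that did so was not computed. Prpf38b, a protein related to a tri-snRNP factor, read 974.5 and 1219.5 in C57BL/6 and 1491.3 and 1864.5 in AND on 115601_at, but 9324.5 and 8341.2 in C57BL/6 and 8165.1 and 5814.4 in AND on 112826_at. The groups did not overlap on either probe set, in opposite directions, and the difference in log2 fold change was 0.97 ± 0.33. The first C57BL/6 value of 115601_at was close to the limit of 869.4. The remaining probe set of Prpf38b, 97919_at, was at -0.15 ± 0.25. Srsf1, the founding SR protein, read 1662.7 and 2854 in C57BL/6 and 4301.6 and 3298.9 in AND on 167618_r_at, and 5875.8 and 5777.4 in C57BL/6 and 4748.7 and 5382.7 in AND on 105797_at. These differed by 0.99 ± 0.44, while the remaining probe sets of Srsf1 were at -0.09 and -0.03. Prpf4, a U4/U6 snRNP protein, had 0.63 on 136690_at, and -0.27 on 113850_at, a difference of 0.89 ± 0.40. The first of these read 562.3 in the first C57BL/6 hybridization, below the limit, and was tested only through the AND arrays, where it is high, so that the difference rests on a value set to the limit. The remaining probe sets of Prpf4 were at 0.44, also tested only through the AND arrays, and at -0.11. The pairs are the extremes of up to 4 probe sets and were chosen for their difference, so that no test is given. Of the 134 probe sets 88 had a plain name ending and 46 an ending that marks a family-wide (14), incomplete (10), rule-dropped (19) or shared (3) design, and of these 66, 11, 1, 4 and 3 were tested, in that order.

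**Figure D4:**
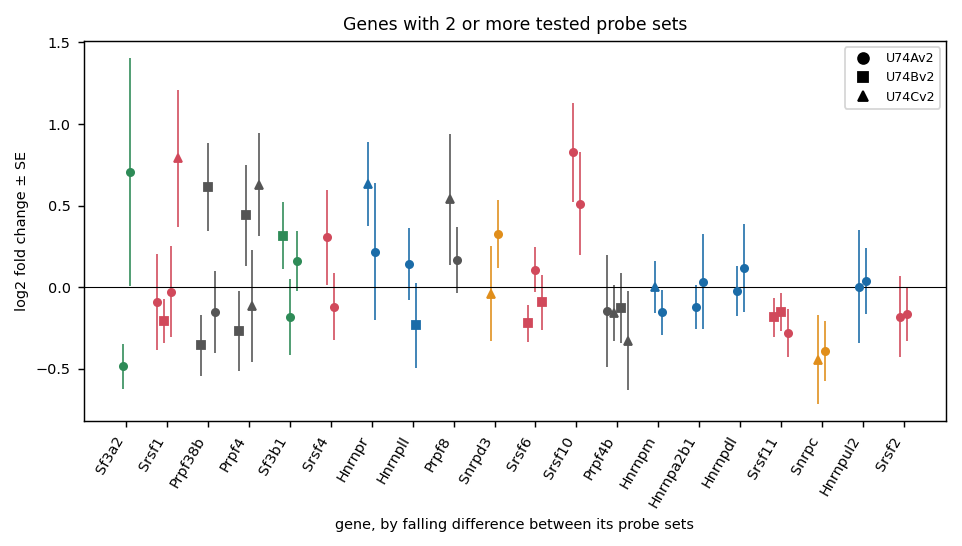
Log2 fold change (AND-TCR–transgenic over C57BL/6) ± standard error of each tested probe set, for the 20 genes with at least 2, ordered by the difference between the extremes. Colors are families and symbols are array types. Sf3a2, Srsf1, Prpf38b and Prpf4 are spread most widely, and Srsf2 and Hnrnpul2 least.

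Other genes of the splicing machinery were compared from lists of further spliceosome proteins (70 tested genes), further RNA-binding regulators (50) and kinases and modifiers of SR proteins (13). Of these 133 genes 0 were higher and 1 was lower at an adjusted p under 0.05 from limma (5 and 8 at an unadjusted p under 0.05). Over all tested probe sets the shares were 0.483% and 0.568% at the adjusted threshold, and 7.47% and 6.51% at the unadjusted one. The median log2 fold change of the 133 genes was -0.05 with 80 negative, where 47.2% of all 7843 tested genes were negative. The lower gene was Clk3, a kinase that phosphorylates SR proteins, which read 6492.6 and 8580 in C57BL/6 and 3036 and 2829.7 in AND. Its log2 fold change was -1.35 ± 0.19 (2.55-fold lower, limma adjusted p = 0.0295). This call was lost without a filter on dim probe sets (limma adjusted p = 0.153). It was also lost without a trend in the prior variance (limma adjusted p = 0.118) and with 1 prior over the array types (limma adjusted p = 0.0926). The fits without 1 hybridization leave a single array in 1 group and cannot judge this call. The related kinases Clk1 (-0.07 ± 0.13) and Clk2 (0.37 ± 0.21) did not pass. Srpk1, a cytoplasmic SR protein kinase, was at 0.60 ± 0.18 and 0.21 ± 0.31. A further probe set of Srpk1, tested only through the AND arrays, read -614.3 and 281.7 in C57BL/6, both below the limit, and 4059.5 and 1466 in AND.

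Mbnl1, which binds pre-mRNA and regulates exons in opposition to Celf2, read 7915.7 and 8294.9 in C57BL/6 and 12484.7 and 13907.8 in AND, a log2 fold change of 0.70 ± 0.13 (limma adjusted p = 0.0693). With the replicate block its limma adjusted p was 0.011, and with the filter that asks for all 4 arrays above the limit it was 0.0376. Its paralogs were lower in value, Mbnl2 at -0.79 ± 0.19 (limma adjusted p = 0.164) and Mbnl3 at -0.57 ± 0.19 (limma adjusted p = 0.281). Celf2 had 4 tested probe sets at 0.25, -0.16, -0.39 and -0.40, and the SR-like activator Tra2b was at 0.44 ± 0.22. Among 6 tested genes known to be alternatively spliced in T cells, 0 passed. At an unadjusted p under 0.05 from limma 2 were higher and 0 lower, against 7.47% and 6.51% of all tested probe sets. A positive log2 fold change was found for 5 of the 6, led by the kinase Fyn at 1.28 ± 0.24 (limma adjusted p = 0.0671).

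**Figure D5:**
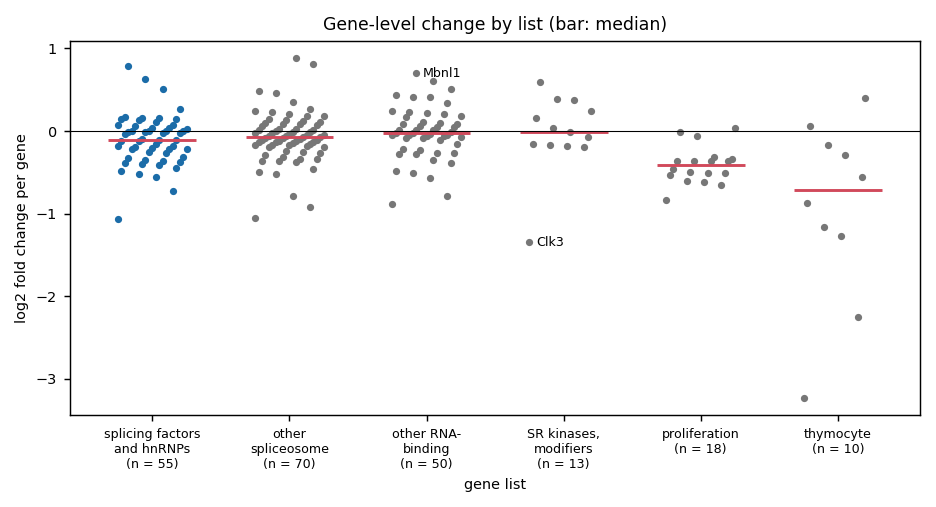
Log2 fold change (AND-TCR–transgenic over C57BL/6) per gene, each at its tested probe set with the highest mean (points), with the median (bar), for the splicing factors and hnRNPs and 5 further lists. Medians are -0.11, -0.07, -0.03, -0.01, -0.41 and -0.72 from left to right, and Clk3 is the outlying kinase.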

How the data were processed

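Total RNA of C57BL/6 and AND-TCR–transgenic thymocytes was hybridized by the authors to 3 Affymetrix array types, 4 arrays each. The deposited intensities, on a linear scale with negative values, came from Microarray Suite and had been scaled by the authors to a common trimmed mean. The type of value is not given in the sources used here.

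Arrays were brought to the same trimmed mean (2% dropped at each end), values under the detection limit (2 noise SDs, a noise SD being the median absolute negative value multiplied by 1.4826) were set to it, and log2 values were fitted with limma 3.58.1 in R 4.3.3 (lmFit, eBayes with trend), 1 fit per array type, with Benjamini-Hochberg adjustment over all 12844 tested probe sets. Scripts were tested on simulated data. The number of arrays limits the precision. Exact permutation of 2 against 2 arrays cannot pass 0.05.

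Members and lists were chosen with earlier results of these data known. Named genes were the 8 highest and 8 lowest genes above the limit on all 4 arrays, genes with discordant probe sets, genes with known roles, and the brightest gene of each array type. Others that are named were chosen after their values were seen. Gene symbols are those of the platform annotation, and promoters were read with Python 3.11.15 from RefSeq windows. Arrays with the same hybridization number were run on the same day in both groups. Their deviations from the group means correlated at 0.04, -0.12 and -0.23, so the number is not a term of the fit, and the replicate block, which is also the run day, is an alternative. Alternatives were a replicate block, quantile normalization, median centring, other limits and filters, other prior variances, and leaving out each hybridization.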

Additional observations from a re-analysis of the deposited data

How the results depend on the processing

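No splicing factor or hnRNP was called under any of the alternatives, among them the replicate block (0 higher, 0 lower, lowest adjusted p 0.0827 from limma). The fits that left out 1 hybridization have a single array in 1 group, so the absence of calls in them decides nothing. Lowest adjusted p-values ranged from 0.0583, under a block with crossed numbers that was chosen after seeing the data, to 0.462. Over all tested probe sets limma called 135, 306 with the replicate block, 228 with median centring, 455 with the crossed block, 256 with the stricter filter (all 4 arrays above the limit), 816 without a filter, 24 with 1 prior over the array types, 10 without the trend, and 0 when any hybridization was left out. In the fit without a filter limma warned that most residual variances were 0. The median of the genes was -0.11 and became -0.029 when the tested probe sets of each gene were averaged, and ranged from -0.11 to -0.057 over the fits without 1 hybridization. Genes with discordant probe sets numbered 0 at 2 times the limit and with the stricter filter, 2 at a limit of 1 noise SD, and 1 to 3 without 1 hybridization. Of the other splicing genes, 1 (Mbnl1) was higher with the replicate block, with the stricter filter and with the crossed block. Of these genes 3 were lower without a filter (Lsm6, Mbnl2 and Srpk3, but not Clk3), 2 with the crossed block (Clk3 and Mbnl2), and 0 without the trend and with 1 prior. Over the fits without 1 hybridization the log2 fold change of Clk3 ranged from -1.55 to -1.15. Over the fits without 1 hybridization the log2 fold change turned sign and ranged from -1.15 to 0.033 for Snrp1c-ps2, from -0.54 to 0.027 for Hnrnpl, from -0.44 to 0.00020 for Hnrnpd, and from -0.42 to 1.83 for the rule-dropped probe set of Sf3a2. It also lay on both sides of 0 for genes whose difference was smaller than its standard error, among them Sf3b2 (-0.57 to 0.85), Hnrnpll on U74Av2 (-0.11 to 0.40), Prpf8 on U74Av2 (-0.06 to 0.39), Srsf2 (-0.58 to 0.22), Srsf3 (-0.61 to 0.17) and U2af2 (-0.24 to 0.25). Splicing probe sets at an unadjusted p under 0.05 ranged from 1 to 4 higher and from 1 to 9 lower over all alternatives. The cause of these changes was not tested.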
